A study of Mus musculus with 8 samples.

Results

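Mitochondrial ribosomal protein genes were followed across 4 states of hepatic stellate cells of the mouse. These liver cells store vitamin A at rest, and on activation they become contractile myofibroblasts that lay down matrix. The members were every gene whose symbol begins with Mrpl or Mrps followed by a number and at most one letter, which gave 77 of the 14162 genes measured, 48 with an Mrpl name and 29 with an Mrps name. All 77 passed the filter on low values. RNA from 8 libraries, 2 in each group, was sequenced: quiescent stellate cells, activated ones with no microRNA named, and activated ones given either miR-15a or a control microRNA. C57BL/6J and SCID mice are named in the labels, which assign no strain, age or genotype to any library, and how the cells were activated or how the microRNA was given is not stated in them. It is not stated either whether the 2 libraries of a group are separate animals or cultures, and the p-values therefore reflect a spread that may be technical. The study sought genes likely to be targeted by miR-15a.

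The mitochondrial ribosome translates the few proteins encoded by mitochondrial DNA, all of them parts of the respiratory chain and the ATP synthase. Its ribosomal RNAs come from mitochondrial DNA, but every one of its proteins is encoded in the nucleus, made in the cytosol and imported. Some of these proteins have a counterpart in the bacterial ribosome, and others were added during the evolution of mitochondria. In stellate cells, activation comes with growth, division and secretion of matrix, all of which draw on ATP. No gene with a symbol beginning with mt-, as genes of the mitochondrial genome itself have, was among those measured. Those genes could therefore not be analysed here.

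The mature miR-15a of the mouse is shown with its seed, bases 2 to 8, in capitals, because a microRNA finds its targets mainly through pairing of the seed with 3′ untranslated regions.
mmu-miR-15a-5p: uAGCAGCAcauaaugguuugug
The letters TGCTGCT, which pair with that seed, were searched on the transcribed strand of the longest annotated 3′ untranslated region of each gene. They occurred 18 times in 12 of the 77 members (15.6%), against 26.4% of the 12540 measured genes with such a region. A longer region has more places for a match, and the members' regions ran from 15 bases (Mrps15) to 6651 (Mrpl17). The 2 shares were not matched for length, so their difference is no measure of depletion. A match is a description of the letters and not evidence that the microRNA binds there.

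Promoters of 68 of the 77 members were found in a RefSeq table (GRCm38.p6) that holds 250 bases before to 50 bases after each start, and words of 3 factor families known for nuclear genes of mitochondria were searched on both strands. The ETS word CCGGAAGT, which GA-binding protein recognises, was in 11 of the 68 (16.2%), against 7.7% of 10539 measured genes. The YY1 word AAGATGGC was in 12 (17.6%), against 4.49%, and in 8 of the 12 it lay after the start. The NRF1 word GCATGCG was in 8 (11.8%), against 6.29%, and 28 members (41.2%) held at least one of the 3 words, against 17.2% of measured genes. The NRF1 word reads onto both strands where the longer CGCATGCG is present, as in 7 members. Windows of the 100 bases before the start are shown for a member with the NRF1 word (Mrpl22, chr11:58171564-58171663, + strand), one with the ETS word (Mrps22, chr9:98601680-98601779, - strand), and 2 members with none of the words whose values are described further on (Mrpl20, chr4:155802778-155802877, + strand, and Mrps36, chr13:100744660-100744759, - strand). Capitals mark the words.
Mrpl22: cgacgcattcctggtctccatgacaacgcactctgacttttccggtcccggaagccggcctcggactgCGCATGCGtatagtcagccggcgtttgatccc
Mrps22: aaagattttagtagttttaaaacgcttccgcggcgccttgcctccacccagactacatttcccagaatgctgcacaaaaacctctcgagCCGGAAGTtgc
Mrpl20: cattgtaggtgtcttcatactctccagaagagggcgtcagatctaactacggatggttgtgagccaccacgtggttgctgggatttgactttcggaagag
Mrps36: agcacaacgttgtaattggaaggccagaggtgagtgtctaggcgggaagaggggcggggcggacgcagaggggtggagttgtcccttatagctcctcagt
The NRF1 word of Mrpl22 begins 32 bases before the start and the ETS word of Mrps22 11 bases before it. In these windows, a word not found says only that those letters are absent.

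The members lie on 17 chromosomes of the mouse genome. A start of another protein-coding gene on the opposite strand lay within 1 kb of 33 of the 77 members (42.9%), against 15.3% of 12682 measured protein-coding genes. In 1 case both genes were members: Mrps11 (chr7:78783119-78792989, + strand) and Mrpl46 (chr7:78775236-78783531, - strand) start 412 bases apart, each within the other, and share 173 exonic bases. In all, 32 members share exon bases with another gene, 23 of them with a protein-coding one. Whether reads were counted by strand is not given in the sources used here, so reads of such pairs may not have been told apart.

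Values in the deposited table are a normalized score, not raw counts, and lie on the same ladder of numbers in each library, so a higher value says that a gene stood higher among all genes of that library. How deeply each library was sequenced is unknown. Differences are log2 fold changes of value + 5, which understates the change of low genes, and calls were made where the adjusted p (limma) was under 0.05. Library totals lay between 10193036 and 10234768. Markers check the labels. Summed markers of activated stellate cells, 6 of 6 measured, were 1429 and 1485 in quiescent libraries and 288035 to 423956 in the other 6, while 7 of 8 markers of quiescent stellate cells summed to 13399 and 14298 against 453 to 774. The quiescent libraries also carried endothelial markers (9 of 9 measured, sums 214205 and 144868, against 164 and 65 in activated libraries) and macrophage markers (8 of 9, 108921 and 134362, against 1317 and 1269). Hepatocyte markers (6 of 7) summed to 9529 and 7939 against 192 and 265, and 2 of 4 cholangiocyte markers to 75 and 66 against 764 and 801. The 5 cell cycle genes summed to 602 and 583 in quiescent and 4380 and 4426 in activated libraries, and all 5 rose. Of the endothelial and macrophage markers, Pecam1 and Marco were at 0 in activated library b. The Y-linked Ddx3y was at 44 and 40 in quiescent and 2606 and 2570 in activated libraries, and Xist at 8724 in both quiescent and at 169 and 21 in activated libraries. All of these differ along with the state of the cells and cannot be told apart from it. That includes the sex of the source animals, on which Xist and Ddx3y depend and which the labels do not give. In bulk RNA, fewer cells of a type cannot be told apart from less RNA per cell.

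Activated against quiescent cells asks how the genes differed between the resting and the matrix-producing state. Mitochondrial ribosomal protein genes were higher in activated cells in most cases: 66 of 77 rose, none fell and 11 were not called. Among all 13150 genes tested, 45.4% were called higher and 34.1% lower. The median member log2 fold change was 1.04, a fold of 2.057, against a median of 0.21 over all genes, and the quartiles of the members were 0.57 and 1.58. The summed value of the 77 genes was 9854 and 10421 in quiescent libraries and 22530 and 21838 in activated ones, or 0.0963% and 0.102% of the library total against 0.221% and 0.214%. In 70 of 77 members the activated values did not overlap the quiescent ones, and in each of those 70 they were higher; over all genes, 51.1% were higher without overlap. When libraries were rescaled by median ratios, the median of all genes shifted by -0.27 and all genes split into 36.2% higher and 41.4% lower, while 56 members were higher and 2, Mrpl9 and Mrpl50, were lower. The members' median stood 0.833 above that of all genes before the rescaling and 0.831 above it afterwards. Rescaling divides each library by a single factor and moves all genes nearly alike. This gap could therefore hardly change, and it is no test of the rise.

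**Figure D1:**
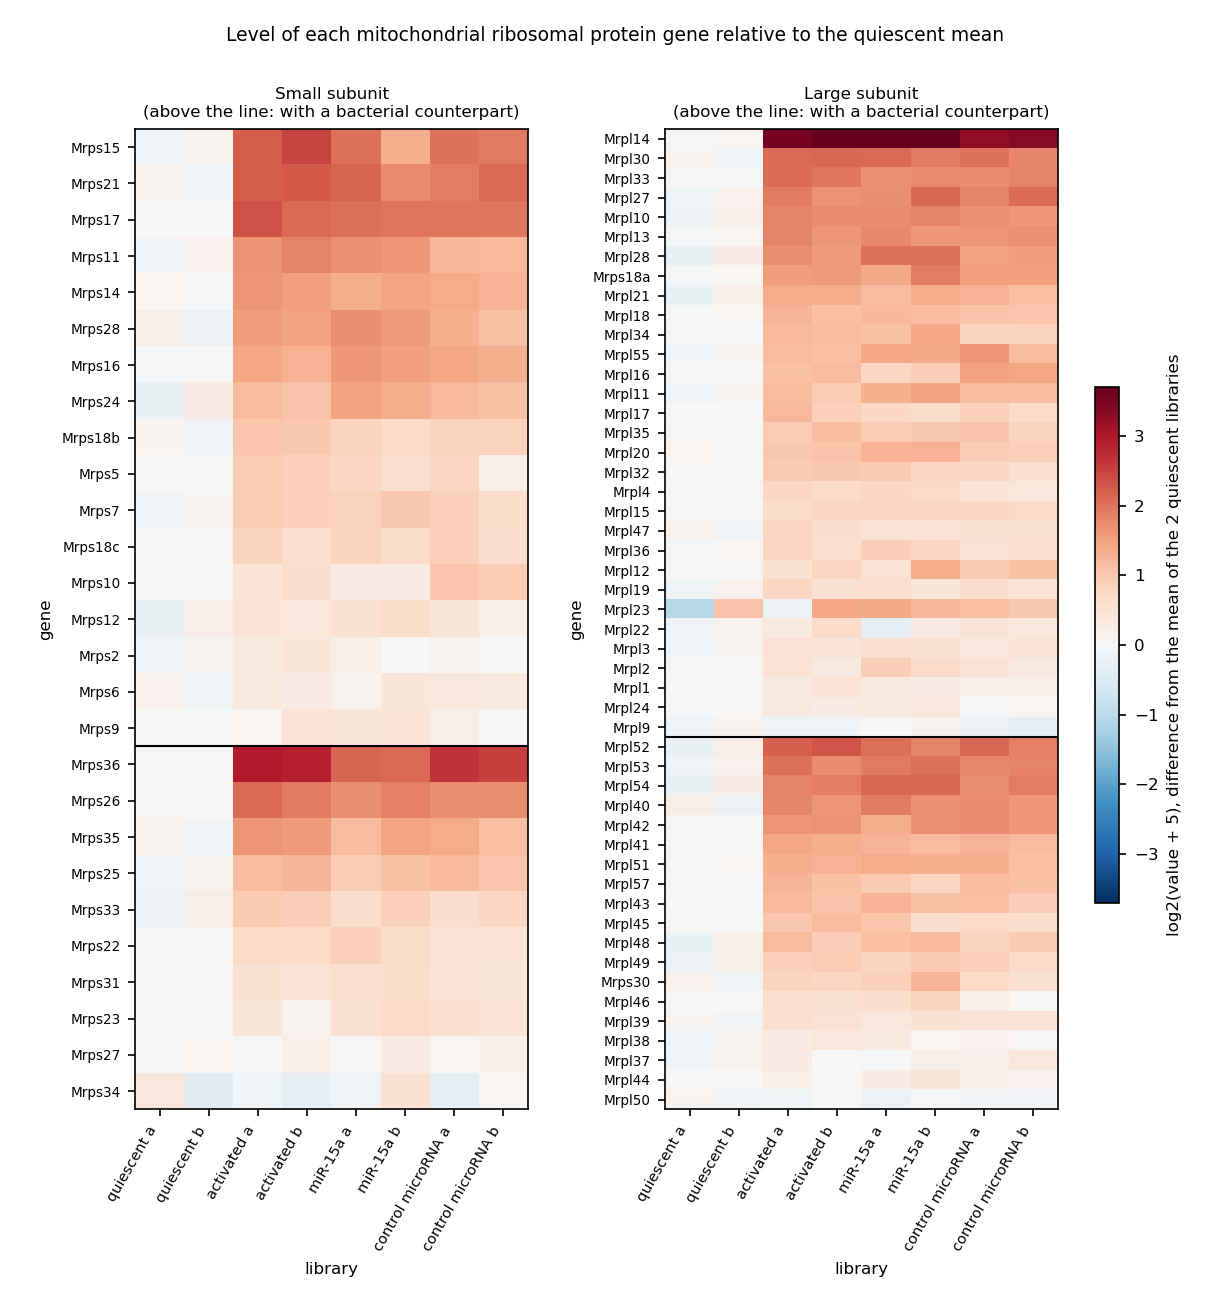
Heat map of the 77 genes (rows) in the 8 libraries (columns), as log2(value + 5) minus the mean of the 2 quiescent libraries. Genes are split by subunit and by whether a bacterial counterpart exists, with Mrps36 drawn below the line of the left panel by its name alone. Rows are mostly red in the 6 libraries of activated cells, with Mrpl14 the darkest, and pale for Mrpl9, Mrpl50 and Mrps34.

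Both subunits took part. Of the small subunit proteins with a bacterial counterpart, 15 of 17 rose, with a median log2 fold change of 1.01, and of those specific to mitochondria 6 of 9 rose, with a median of 0.74. Of the large subunit proteins, 28 of 31 with a bacterial counterpart rose (median 1.04), and 16 of 19 specific to mitochondria (median 1.08). Mrps36 was kept apart, because its product is now known as KGD4, a part of the oxoglutarate dehydrogenase complex, and not as a ribosomal protein. Differences between these classes were not tested.

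Mrpl14, a large subunit protein that sits on the face turned to the small subunit, changed most. Its values were 18 and 20 in quiescent, 272 and 326 in activated, 302 and 320 in miR-15a and 230 and 242 in control microRNA libraries. The 2 quiescent values were far below the other 6, and the log2 fold change in activated cells was 3.66 (SE 0.122, adjusted p = 1e-07). Mrpl14 shares 106 exonic bases with Tmem63b on the opposite strand. Mrps36 was at 7 and 8 in quiescent, 90 and 86 in activated, 51 and 48 in miR-15a and 74 and 67 in control microRNA libraries. No groups overlapped, and the rise was 2.90 (SE 0.146, adjusted p = 9e-07). Reads of Mrps36 may be split with 3 named pseudogenes.

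Mrps15, a small subunit protein of the platform region, rose by 2.38 (SE 0.225, adjusted p = 3.3e-05), with values of 34 and 40 in quiescent and 194 and 234 in activated libraries. In miR-15a libraries it was at 166 and 101, the widest gap of any group for this gene, and in control microRNA libraries at 162 and 155. Mrpl52, a large subunit protein with no bacterial counterpart, was at 144 and 206 in quiescent and 824 and 885 in activated libraries. Its log2 fold change was 2.28 (SE 0.171, adjusted p = 8.5e-06), and miR-15a (728 and 622) and control microRNA libraries (765 and 642) overlapped each other. Mrpl33, at 216 and 202 against 892 and 844, rose by 2.03 (adjusted p = 1.3e-07).

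**Figure D2:**
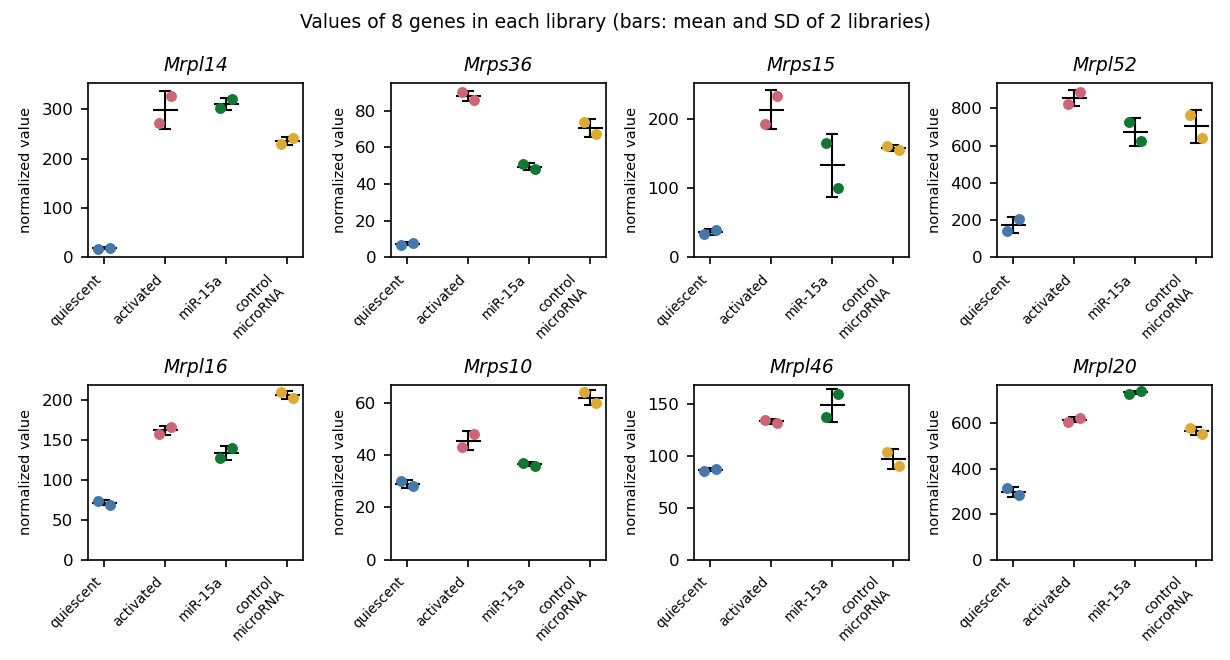
Normalized values (vertical axes, starting at 0) of 8 genes in each library, by group, with horizontal ticks at the mean and bars of 1 SD over 2 libraries. Quiescent points are the lowest in all 8 panels, Mrpl16 and Mrps10 are highest with the control microRNA, and Mrpl20 is highest with miR-15a.

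Members with a known role in assembly, decoding or disease were described whatever their change. Mrps16, a small subunit protein linked to inherited respiratory chain deficiency, was at 110 and 115 in quiescent and 312 and 283 in activated libraries and rose by 1.36 (adjusted p = 4.5e-06). Mrpl41, a large subunit protein near the exit of the peptide tunnel, went from 104 and 96 to 277 and 256, a rise of 1.37 (adjusted p = 6.3e-06). Mrps22 rose by 0.74 (104 and 98 against 173 and 170, adjusted p = 0.00049) and Mrpl3 by 0.50 (246 and 284 against 386 and 368, adjusted p = 0.0014). Mrps30, which despite its name belongs to the large subunit, rose by 0.82 (121 and 98 against 198 and 194, adjusted p = 0.0022).

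The 3 Mrps18 genes encode paralogues of one bacterial protein, of which Mrps18a sits in the large subunit. Mrps18a was at 78 and 86 in quiescent and 249 and 256 in activated libraries, a rise of 1.57 (adjusted p = 3.9e-05). Mrps18b went from 106 and 91 to 206 and 201 (1.01, adjusted p = 7.8e-05), and Mrps18c from 152 and 164 to 286 and 246 (0.73, adjusted p = 0.00089). All 3 rose, without overlap between the groups. Mrpl12, the stalk protein that recruits translation factors and also binds the mitochondrial RNA polymerase, was at 176 and 168 against 258 and 304 and rose by 0.69 (SE 0.242, adjusted p = 0.031). Its miR-15a libraries, at 250 and 452, differed more from each other than the quiescent and activated means did, and its call was lost in 5 of 16 refits of the model (with another pseudocount, filter, scaling or variance prior, the replicate letter as a block, only the groups compared, or 1 library left out). Mrps12, the decoding protein of the small subunit, rose by 0.46 (185 and 266 against 317 and 299, adjusted p = 0.031) and lost its call in 5 as well. Of the 66 members that rose, 56 were called higher in all 16 refits.

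The 11 members not called spanned log2 fold changes from -0.23 to 0.63. Mrps34, whose product is needed for a stable small subunit, was at 102 and 56 in quiescent and 70 and 58 in activated libraries, with overlap and a log2 fold change of -0.23 (SE 0.328, adjusted p = 0.53). It shares 763 exonic bases with Nme3 and 1309 with Mapk8ip3. Mrpl9, at 343 and 412 against 338 and 352, and Mrpl50, at 321 and 281 against 270 and 300, had log2 fold changes of -0.12 and -0.08. Mrpl44, which carries an RNase III fold, was at 120 and 122 against 140 and 116, with a log2 fold change of 0.07 (adjusted p = 0.61). Mrpl23 was low and uneven, at 1 and 21 in quiescent and 6 and 29 in activated libraries. Its 0.63 had an SE of 0.715, and its reads may be split with a named pseudogene. The other 6 were Mrps27, Mrpl37, Mrps23, Mrps9, Mrps6 and Mrpl22, at 0.06 to 0.53.

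Levels between genes were compared per kilobase of annotated exon, as the mean value over the 8 libraries. Mrpl54 was highest at 677, followed by Mrpl52 at 543 and Mrpl28 at 364, all 3 of the large subunit. The lowest were Mrpl23 at 3.87, Mrps10 at 5.35 and Mrps35 at 8.92. Exon length here is the union of all annotated exons (8079 bases for Mrps10 and 825 for Mrpl54), which lowers the per-kilobase level of genes with rarely used exons. Fold changes in activated cells were also set beside length. With the members in 3 classes of length, the median was 1.13 in the shortest (607 to 1664 bases), 1.01 in the middle and 0.96 in the longest class. For all genes within the same limits it was 0.65, 0.38 and 0.08. Across single genes, the Spearman rho with log2 length was -0.149 over the members and -0.118 over 12533 genes. Pearson r was -0.166 and -0.0576.

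**Figure D3:**
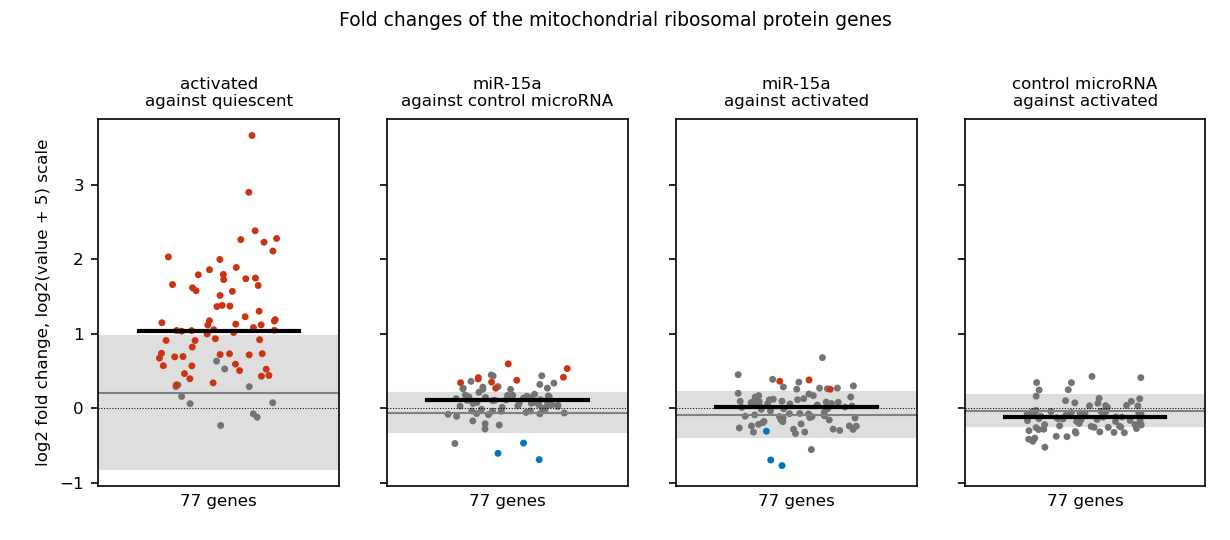
Log2 fold changes (vertical axis, log2(value + 5) scale) of the 77 genes in the 4 comparisons, spread sideways for legibility, with genes called higher in red, lower in blue and not called in grey. The black line is the median of the 77 genes, the grey line the median of all genes tested and the grey band the range between their quartiles. In activated against quiescent cells the black line is at 1.04, above the band, and in the other 3 comparisons it lies within the band.

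Other genes of mitochondrial translation were taken from lists of 114 genes, of which 103 were measured. The list of mitoribosome proteins whose names fall outside the rule held 7 genes, counting Oxa1l, an insertase bound to the ribosome. Of these 7 genes, 6 rose (85.7%, against 45.4% of all genes tested) and none fell. Among them Ict1, the older symbol of Mrpl58, a peptidyl-tRNA hydrolase that frees stalled ribosomes, went from 18 and 34 to 142 and 168, a rise of 2.41 (adjusted p = 5.3e-05). Aurkaip1 rose by 0.72 and Ptcd3 by 0.59. Of 29 genes of mitoribosome assembly and ribosomal RNA modification, 13 rose (44.8%) and 2 fell (6.9%). The share that rose was near the 45.4% of all genes tested. Sirt7, a nuclear protein and not itself an assembly factor, was counted among the 29. Mpv17l2, an assembly factor of the inner membrane, rose by 1.69 (88 and 94 against 312 and 298), and Grsf1, an RNA granule protein, went from 348 and 326 to 690 and 667. Ftsj2, the older symbol of the ribosomal RNA methyltransferase Mrm2, fell by 1.71, from 62 and 80 to 18 in both libraries.

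Translation factors rose in 11 of 16 cases (68.8%, against 45.4% of all genes tested) and fell in 1, Pdf. Tufm, the elongation factor that brings aminoacyl-tRNA to the ribosome, was at 48 and 54 in quiescent and 214 and 212 in activated libraries, a rise of 1.96 (adjusted p = 2.7e-06). Slirp, which with Lrpprc keeps mitochondrial messenger RNAs stable, rose by 1.29, and the elongation factor Gfm1 by 0.78. The list of aminoacyl-tRNA synthetases held 22 measured genes, counting subunits of the glutamyl-tRNA amidotransferase, which is not a synthetase. Of these 22 genes, 9 rose (40.9%, below the share of all genes) and 3 fell (13.6%). Gars (762 and 768 against 3994 and 3812, a rise of 2.34) and Kars (1.15) serve the cytosol as well as mitochondria, and Iars2, which serves mitochondria alone, rose by 1.08.

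Of 18 genes for transcription, upkeep of mitochondrial DNA and RNA processing, 10 rose (55.6%, against 45.4% of all genes tested) and 2 fell. Rexo2, a nuclease that removes very short RNAs, rose by 2.05, Hsd17b10, a subunit of mitochondrial RNase P, by 1.75, and Elac2, which trims the other end of the tRNAs, by 0.52. Tfam, which packages mitochondrial DNA and starts its transcription, was at 298 and 294 against 344 in both activated libraries and rose by 0.21 (adjusted p = 0.023). Polrmt, the mitochondrial RNA polymerase, was at 254 and 268 against 284 and 256 and was not called (0.05, adjusted p = 0.68). Of 11 listed regulators of mitochondrial biogenesis, 9 were lower (81.8%, against 34.1% of all genes tested) and 1, Esrra, was higher (0.36). Myc fell by 3.01, from 534 and 470 to 60 and 56 (adjusted p = 7.5e-06), Gabpb2, a GA-binding protein subunit, by 1.15, and Nfe2l2 by 1.10. Nrf1 fell by 0.49 (328 and 394 against 266 and 244, adjusted p = 0.0047). Ppargc1a, the coactivator at the head of this programme, was low and uneven, at 24 and 1 in quiescent and 0 and 36 in activated libraries, and was not called.

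A pair of other families of the same kind were set beside these genes, with no test of the difference. Of all genes tested, 45.4% rose and 34.1% fell. Cytosolic ribosomal protein genes rose in 66 of 80 cases (82.5%) and fell in 4, with a median log2 fold change of 1.20. Nuclear genes of oxidative phosphorylation subunits rose in 67 of 76 (88.2%) and fell in 2, with a median of 1.02.

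**Figure D4:**
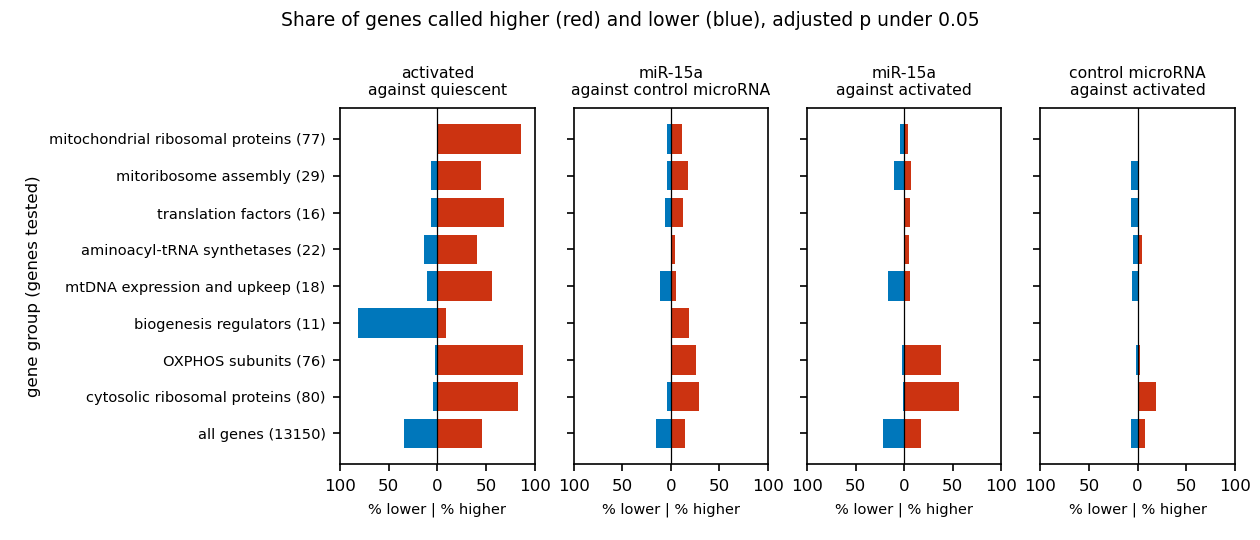
Share of the genes of each list called lower (blue, to the left of 0) and higher (red, to the right) in the 4 comparisons, with the number tested in brackets. Bars of the mitochondrial ribosomal proteins reach 85.7% higher in activated against quiescent cells, 11.7% higher and 3.9% lower with miR-15a against the control microRNA, and 0% in either direction in the last panel.

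miR-15a against the control microRNA is the comparison in which only the microRNA differs by label. Most members were not called: 9 of 77 were higher (11.7%) and 3 lower (3.9%), where 14.4% of all genes tested were called higher and 15.4% lower. At an unadjusted p under 0.05 (limma) the counts were 14 and 3, against 2502 and 2963 of the 13150 genes tested. The median member log2 fold change was 0.11, against -0.07 over all genes. Of the 77 members 55 were positive, and of the 13150 genes tested 5611 were. The members' sum was 21895 and 22050 with miR-15a and 20594 and 19668 with the control. After median-ratio rescaling the members' median was 0.17, and all genes split into 17.6% higher and 12.1% lower. The count of higher members depended on single libraries: it was 1 without miR-15a library b or control library b, 3 without control library a, and 4 without miR-15a library a or either activated library. That of lower members was 1 without miR-15a library b.

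Of the 9 that were higher, 8 belong to the large subunit class with a bacterial counterpart and 1, Mrpl46, to the large subunit class without. Mrpl20, a large subunit protein needed early in assembly in bacteria, was at 728 and 740 with miR-15a and 579 and 552 with the control, and rose by 0.37 (SE 0.074, adjusted p = 0.0093). The groups did not overlap, and this call held in all 16 refits, the only one of the 9 to do so. In quiescent cells Mrpl20 was at 314 and 283 and in activated cells at 606 and 624. Mrpl46, a protein of the central protuberance, was at 138 and 160 with miR-15a and 104 and 90 with the control, a rise of 0.59 (SE 0.128, adjusted p = 0.013) that was lost in 3 refits. Its neighbour Mrps11, at 159 and 150 against 114 and 112, had a log2 fold change of 0.43 and was not called (adjusted p = 0.058). The 2 genes overlap on opposite strands, as described above.

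Mrpl28 was at 746 in both miR-15a libraries and at 502 and 528 with the control, a rise of 0.53 (SE 0.164, adjusted p = 0.046). Mrpl34 rose by 0.41 (210 and 270 against 176 and 179, adjusted p = 0.047). Mrpl2, which lies close to the catalytic centre of the large subunit, also rose by 0.41 (332 and 288 against 246 and 218, adjusted p = 0.039), and Mrpl14 by 0.39 (adjusted p = 0.048). The call was lost in 9 of 16 refits for Mrpl28, 11 for Mrpl34 and 8 each for Mrpl2 and Mrpl14. Mrpl24, Mrpl4 and Mrpl9 make up the 9, at 0.35, 0.27 and 0.34.

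The 3 members lower with miR-15a were Mrpl16, Mrps10 and Mrps36. Mrpl16, a large subunit protein near the site where tRNAs enter, was at 128 and 140 with miR-15a and 210 and 203 with the control. It fell by 0.61 (SE 0.107, adjusted p = 0.0058), and the call held in all 16 refits. Mrps10, of the head of the small subunit, was at 37 and 36 against 64 and 60 and fell by 0.69 (SE 0.145, adjusted p = 0.012), a call lost in 1. Mrps36 fell by 0.47 (SE 0.146, adjusted p = 0.047), a call lost in 11. These 3 were higher in activated than in quiescent cells, as were 8 of the 9 members that were higher with miR-15a. So were 66 of all 77 members (85.7%). Among the 12 members with a seed match the median log2 fold change was 0.04, against 0.11 in the 65 without.

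**Figure D5:**
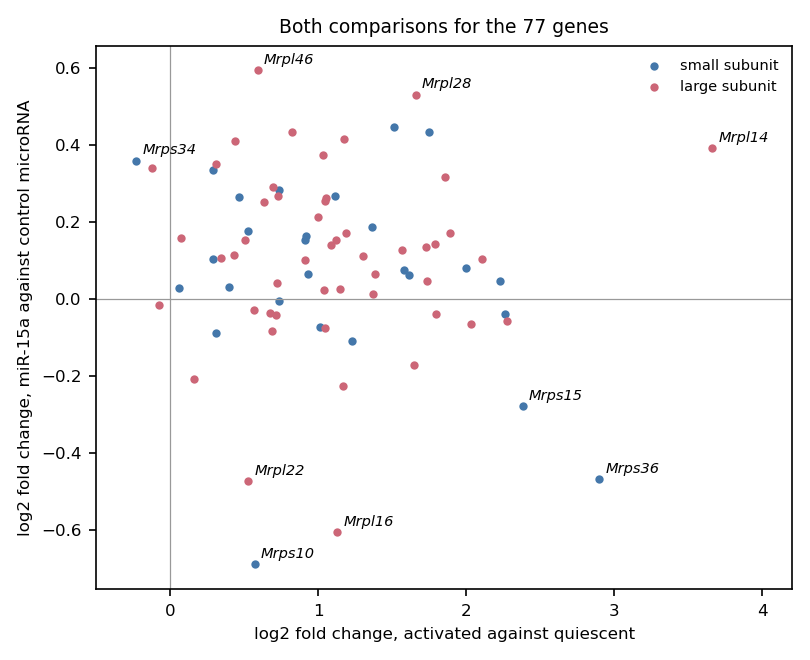
Log2 fold change of each of the 77 genes in activated against quiescent cells (horizontal) and with miR-15a against the control microRNA (vertical), coloured by subunit, with Mrps36 coloured by its name. Points spread from -0.23 to 3.66 horizontally and from -0.69 to 0.59 vertically, and Mrps10 and Mrpl16 lie lowest.

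The 2 comparisons share no library, and across the 77 genes their log2 fold changes had a Pearson r of -0.092 and a Spearman rho of -0.11. This is a description across genes, which are not independent replicates. Other cell markers differed between these 2 groups as well: the endothelial sum was 7248 and 6981 with miR-15a and 198 and 353 with the control, the macrophage sum 8845 and 9936 against 1816 and 1527, and the sum of 5 cell cycle genes 2486 and 2331 against 3924 and 3658. Their part in the members' values was not tested.

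Of the other genes of mitochondrial translation, few were called in this comparison. Of the assembly list 5 of 29 rose (17.2%, against 14.4% of all genes tested) and 1, Grsf1, fell (by 0.25). The largest rise was that of Malsu1, a factor that binds Mrpl14 on the large subunit, at 101 and 84 against 66 and 48 (0.66, adjusted p = 0.035). Ngrn rose by 0.60 and Ddx28 by 0.63. Sirt7, a nuclear protein counted in this list, rose by 0.31. Of the translation factors Pdf, which removes the formyl group from new mitochondrial proteins, rose by 0.84 (132 and 156 against 65 and 94, adjusted p = 0.013), Lrpprc rose by 0.29, and Gfm2, a ribosome recycling factor, fell by 0.42. Aurkaip1 rose by 0.55 (adjusted p = 0.0026), the synthetase Fars2 by 0.57 and the RNA-degrading Pnpt1 by 0.59, while Ssbp1 fell by 0.45 and Polrmt by 0.35. Of the regulators Nfe2l2 rose by 0.40 and Esrra by 0.22. Cytosolic ribosomal protein genes were higher in 23 of 80 cases (28.8%) and lower in 3 (3.75%). Oxidative phosphorylation subunits were higher in 20 of 76 (26.3%) and lower in none. Of all genes tested, 14.4% were higher and 15.4% lower.

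miR-15a and the control microRNA were each also compared with activated cells given neither, and these 2 comparisons share the activated libraries. With miR-15a, 3 members were higher and 3 lower (3.9% each), where 16.8% of all genes tested were called higher and 21.6% lower. The median was 0.01, against -0.10 over all genes. After median-ratio rescaling, which moved the median of all genes by 0.139, all genes split into 23.7% higher and 12.4% lower and the members into 8 higher and 1 lower. No member was called higher without activated library b or without miR-15a library b, and 1 was without activated library a or miR-15a library a. The members' median was -0.02 without activated library b and -0.04 without miR-15a library b, and 1 member was lower without activated library a.

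Mrps36 was lower with miR-15a than in activated cells by the most: 51 and 48 against 90 and 86, a drop of 0.77 (SE 0.146, adjusted p = 0.0061) that held in all 16 refits. Against the same activated libraries, its difference with the control microRNA was -0.30 and not called (adjusted p = 0.20). Mrps15 fell by 0.70 with miR-15a (adjusted p = 0.045), a call lost in 13 of 16, and was at -0.42 with the control microRNA (adjusted p = 0.25). Mrpl33 fell by 0.31 with miR-15a (690 and 708 against 892 and 844, adjusted p = 0.013), and its difference with the control microRNA was -0.24 (712 and 752, adjusted p = 0.058). The members higher with miR-15a were Mrpl2 (0.38, adjusted p = 0.042), Mrpl11 (0.36, adjusted p = 0.048), whose product forms the base of the stalk, and Mrpl20 (0.25, adjusted p = 0.032). For Mrpl11 the values were 310 and 351 against 276 and 237, and its call was lost in 11 of 16 refits.

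With the control microRNA, no member was called in either direction, where 7.18% of all genes tested were called higher and 6.61% lower. At an unadjusted p under 0.05 (limma), 2 members were higher and 13 lower, against 1923 and 2388 of the 13150 genes tested. The median member log2 fold change was -0.12, against -0.03 over all genes. Of the 77 members 59 were negative, and of the 13150 genes tested 7186 were. Without overlap, 38 members lay below the activated values, where 34.3% of all genes did. After median-ratio rescaling the median was -0.04 and 1 member, Mrpl16, was higher. Nearest to a call were Mrps11 at -0.52 (114 and 112 against 156 and 174, adjusted p = 0.052), Mrpl46 at -0.44 (104 and 90 against 135 and 132, adjusted p = 0.057) and Mrpl33. Mrpl16 and Mrps10, both lower with miR-15a than with the control microRNA, were on the other side. For Mrpl16 the difference between control microRNA and activated cells was 0.34 (210 and 203 against 158 and 166, adjusted p = 0.072), and that between miR-15a and activated cells -0.27 (adjusted p = 0.088). For Mrps10 they were 0.41 (64 and 60 against 43 and 48, adjusted p = 0.099) and -0.28 (adjusted p = 0.16).

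Against activated cells, cytosolic ribosomal protein genes were higher with miR-15a in 45 of 80 cases, with a median of 0.25, and with the control microRNA in 15. Oxidative phosphorylation subunits were higher with miR-15a in 29 of 76, with a median of 0.13, and with the control microRNA in 2. The corresponding counts of mitochondrial ribosomal protein genes were 3 and 0 of 77. Among all genes tested, the shares called higher were 16.8% and 7.18%. The 3 families differ in level, with medians of 3168, 663 and 258 in activated library a, in the order above. For miR-15a against activated cells, the Pearson r of log2 fold change with level was 0.278, 0.726 and 0.019 in these families. Over all genes it was 0.189. The part of level in these counts was not tested. The difference between the families was not tested.

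The change in activated cells was set against features of the sequences. The median log2 fold change was 1.19 in the 11 members with the ETS word and 1.03 in the 57 without, 0.95 in the 12 with the YY1 word and 1.05 in the 56 without, and 1.004 in the 8 with the NRF1 word and 1.05 in the 60 without. It was 0.99 in the 33 members with a protein-coding start on the opposite strand within 1 kb and 1.05 in the 44 without. In the 12 members with a seed match it was 0.77, against 1.05 in the 65 without. These medians are descriptions and were not tested.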

How the data were processed

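Per the labels' protocols, total RNA went into TruSeq libraries that were read single-end on a NextSeq. The submitters' processing notes name STAR, Subread, featureCounts and mm10, with no versions. The deposited file is called a table of read counts, yet it holds a normalized score: one set of 910 whole numbers recurs in each of the 8 libraries, 10 genes per library tie at the top value of 125636, and totals differ by 0.409%, as quantile normalization and rounding leave them. The authors' step is not given in the sources used here. Ties between libraries can make an SE too small.

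From these values limma 3.58.1 (R 4.3.3) was fitted to log2(value + 5) over all 8 libraries (4 group means, 4 residual degrees of freedom, a prior that follows the mean, Benjamini-Hochberg adjustment). Testing needed a value of 10 or more in 2 or more libraries, which 13150 of 14162 genes had. The procedure was tested on simulated data. Genes named in the text are the called members with the largest changes and no overlap between groups (up to 4 in each direction), the 3 highest and lowest per kilobase, 3 genes of each other list by p, and a fixed set. Mrpl4, Mrpl9, Mrpl24, Mrps11, Malsu1, other members of those lists that are named singly, and the members not called were named after their values were seen. The members and lists were chosen with earlier results of these data known. Exons, 3′ untranslated regions and neighbours come from GENCODE M21 (GRCm38, the same assembly as mm10), and the miRNA and promoter sequences from RefSeq (GRCm38.p6). Seed matches were counted over all members, and those of single members are not reported here.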

Additional observations from a re-analysis of the deposited data

How the results depend on the processing

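In activated against quiescent cells, leaving out one library at a time gave 61 to 67 members higher, 0 lower and medians of 1.01 to 1.08. The median was 0.92 with a pseudocount of 20 and 0.77 with median-ratio scaling, where 2 were lower. For miR-15a against the control, leave-one-out gave 1 to 9 higher, 1 to 3 lower and medians of 0.069 to 0.15. Requiring a log2 fold beyond 0.5 left 2 higher, and no filter, one variance prior for all genes or only the groups compared left 4 each. The median was 0.17 with median-ratio scaling. For miR-15a against activated cells, leave-one-out gave 0 to 4 higher, 1 to 3 lower and medians of -0.040 to 0.020, with a change of sign to -0.02 without activated library b and to -0.040 without miR-15a library b. The higher count was 0 with the fold limit and with one variance prior, and with median-ratio scaling 8 were higher, 1 was lower and the median was 0.15. For the control against activated cells, leave-one-out gave 0 higher, 0 to 1 lower and medians of -0.17 to -0.10. With a pseudocount of 20 or a minimum of 50, 1 was lower, with no filter 2, with median-ratio scaling 1 was higher, and with one variance prior 2 were higher and 2 lower. The cause of these shifts was not tested.

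Replicate letters did not pair the libraries: deviations of libraries with the same letter correlated between -0.067 and 0.087. With the letter as a replicate block, the members higher and lower were 66 and 0, 8 and 2, 2 and 3, and 0 and 0 in the 4 comparisons in the order above. For the members named by the rules given above, 1663 of the alternative values stayed on the same side of the threshold, 106 lost a call, 19 gained one and none reversed. Members named outside those rules, such as Mrps11, Mrpl9 and Mrps23, are not in these counts. Some of them, Mrps11 among them, gained a call in some refits. Depth is unknown, so no limit from counting can be given.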
